A study of Mus musculus with 2 samples.

Results

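The endoplasmic reticulum (ER) folding, unfolded protein response (UPR) and secretion genes described here are 37 named genes, chosen as a list of symbols, and all 37 occur among the 19626 genes of the count matrix. They were followed in single cells from the cervical loop region of the lower incisor, the growing end of the mouse tooth, taken at postnatal day 20. The first library came from 1 mouse of genotype Memo1;K14CRE, called Memo1-mutant, in which the keratin 14 promoter drives Cre recombinase, and the second from 1 control mouse whose alleles the labels do not give. The labels say that the harvest held both epithelium and mesenchyme and was digested with trypsin and dispase, and that 1 animal was used per genotype. With 1 library per genotype no difference between the genotypes can be tested, and no p-value is given. Every interval below is an exact 95% interval that covers the counting of molecules (UMIs) alone, not the variation between mice, litters or dissections.

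Proteins bound for secretion enter the ER through the Sec61 channel, helped by the TRAP complex, whose 4 subunits are Ssr1 to Ssr4. Signal peptidase and oligosaccharyltransferase trim and glycosylate them, Hspa5 (BiP), Hsp90b1 (GRP94), calreticulin, calnexin and the disulfide isomerases fold them, and COPII vesicles and the p24 proteins carry them to the Golgi. When unfolded protein accumulates, sensors in the ER membrane act through the transcription factors Atf6, Xbp1 and Atf4 to raise the chaperones, Herpud1 and, under stronger stress, Ddit3 (CHOP) and Trib3. Ameloblasts make enamel by secreting amelogenin, ameloblastin and enamelin in bulk and later turn to removing that matrix and moving ions, and mutations that trap enamel proteins in the ER are a known route to defective enamel in the mouse. The counts measure RNA abundance; the splicing of Xbp1 and the cleavage of Atf6, by which those factors are switched on, were not measured.

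The promoter letters through which UPR factors are known to act were read for the members, since the results turn on which of the genes moved together. RefSeq promoter windows (250 bases before to 50 after the gene start, build GRCm38.p6) were found for 29 of the 37 members, the others being Atf6, Hyou1, Ssr2, Sec61a1, Ostc, Manf, Tmed2 and Kdelr2. The ER stress response element, written here as CCAAT, then 9 bases of any kind, then CCACG, and searched on both strands, was present in the windows of 7 of those 29 members (24.1%), against 39 of all 32851 windows (0.119%). A shorter relative, ATTGG, 1 base of any kind, then CCACG, was present in 2 members, Herpud1 and Dnajb11, and in 12 of all windows (0.0365%). The windows around the element are shown on the strand of the gene, with the 2 fixed blocks in capitals (for Calr and Creld2 the element lies on the opposite strand, so the blocks read CGTGG and ATTGG; Herpud1 shows the shorter element whole). A match describes the letters and does not show that a factor binds there.
Hspa5, chr2:34772005-34772063, plus strand: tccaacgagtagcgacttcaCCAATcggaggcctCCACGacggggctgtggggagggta
Hsp90b1, chr10:86705618-86705676, minus strand: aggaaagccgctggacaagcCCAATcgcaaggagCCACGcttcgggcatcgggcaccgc
Dnajc3, chr14:118937807-118937865, plus strand: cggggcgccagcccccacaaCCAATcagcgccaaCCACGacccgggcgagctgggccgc
Pdia6, chr12:17266471-17266529, plus strand: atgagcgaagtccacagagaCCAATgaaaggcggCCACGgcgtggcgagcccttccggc
Canx, chr11:50325780-50325838, minus strand: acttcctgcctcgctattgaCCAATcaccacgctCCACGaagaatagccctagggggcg
Calr, chr8:84847055-84847113, minus strand: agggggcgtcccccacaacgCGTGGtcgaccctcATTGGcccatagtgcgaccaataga
Creld2, chr15:88819500-88819558, plus strand: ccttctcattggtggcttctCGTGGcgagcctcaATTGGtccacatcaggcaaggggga
Herpud1, chr8:94386357-94386407, plus strand: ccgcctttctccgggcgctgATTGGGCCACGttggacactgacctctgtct
The element of Hspa5 lies 65 to 47 bases before the gene start, the nearest to the start of the 7, and that of Hsp90b1 shown here lies 212 to 194 bases before it, the farthest. Hsp90b1 carries another copy 107 to 89 bases before its start. Other elements searched were rare among the members. TGACGTGG was present in 1 of the 29 members, Sec24d, and in 0.676% of all windows. TGATG, 1 base of any kind, AA, then 1 base of any kind, was present in 2 members, Trib3 and Herpud1 (6.90%), beside 3.95% of all windows.

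The libraries hold 13820 Memo1-mutant cells and 9708 control cells, with 1.21e+08 and 7.95e+07 counts and medians of 6798 and 2643 UMIs per cell. The authors' metadata put 2303 Memo1-mutant and 2981 control cells in the ameloblast lineage, in 9 clusters, and all cells in 29 clusters. Within the lineage 31.2% of Memo1-mutant cells and 21.2% of control cells hold under 1000 UMIs. The clusters carry numbers and no cell type; a name ending in "-like" below means that at least 3 listed markers of that type led the cluster, and clusters without such a name are called by their number and leading genes. 139 barcodes occur in both libraries. Memo1 itself, the targeted gene, was at 17.7 CPM (CPM scales the summed counts of the cells to a total of 1e+06) in Memo1-mutant lineage cells and 20.3 CPM in control lineage cells, a ratio of 0.872 (0.771 to 0.987); the labels do not say which part of the gene is deleted, so this 3' count does not check the deletion.

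In both libraries the genes were highest in lineage cluster 6 (led by Dspp, Fxyd4 and Cyp26a1). Their summed counts made up 1.22% of all counts there in the Memo1-mutant library and 1.21% in the control library. These were the highest of 26 clusters with at least 50 cells in each library, 8 of the lineage and 18 all-cell clusters. All-cell clusters made up of lineage cells alone were left out of the 26, since they hold the same cells again. Among those, all-cell cluster 25 holds 63.2% of the Memo1-mutant and 60.1% of the control cells of lineage cluster 6. Its shares were 1.36% in Memo1-mutant and 1.24% in control cells. In lineage cluster 3, secretory ameloblast-like, the share was 0.553% in Memo1-mutant cells and 0.622% in control cells, and in lineage cluster 7, maturation ameloblast-like, it was 0.329% and 0.365%, the lowest of the 8 lineage clusters compared. Erythroid-like all-cell cluster 18 was lowest of all, at 0.116% in Memo1-mutant cells and 0.0955% in control cells, and 34 of the 37 members had their lowest level there in each library. The median over the 26 clusters was 0.620% in the Memo1-mutant library and 0.619% in the control library. The shares of the 2 libraries followed each other over the 26 clusters (Spearman 0.805, Pearson 0.903, as a description: both share the clustering and the depth of each cluster).

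**Figure D1:**
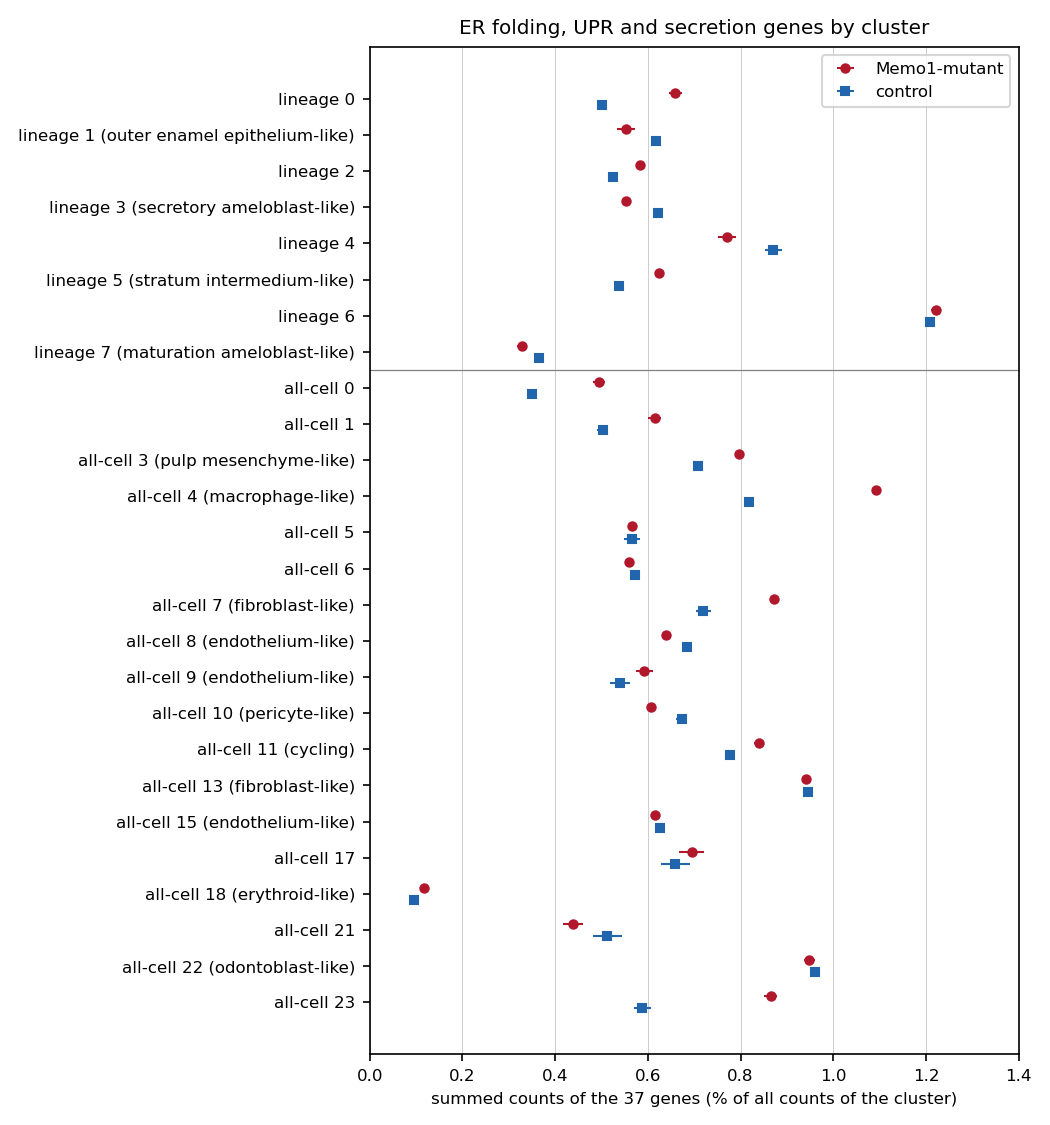
Summed counts of the 37 genes as a percentage of all counts (horizontal axis) in 26 clusters, Memo1-mutant (circles) above control (squares), with exact 95% Poisson intervals; the line divides lineage clusters from the others. Lineage cluster 6 is highest in both libraries (1.22% and 1.21%), and the widest gaps are in all-cell clusters 4 and 23.

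The peak in lineage cluster 6 came mainly from the entry and export machinery. Of the 37 members, 13 had their highest level of all 26 clusters there in both libraries: Dnajb11, Manf, P4hb, Sec61b, Ssr1, Ssr2, Ssr3, Ssr4, Spcs1, Spcs2, Sec23b, Tmed2 and Tmed10. The 7 translocon and TRAP genes together stood at 4152 CPM in Memo1-mutant and 4359 CPM in control cells of cluster 6, at 2104 and 2442 CPM in cluster 3, and at 852 and 982 CPM in cluster 7. Ssr4, the delta subunit of TRAP, was the most abundant member there, at 1205 CPM in Memo1-mutant and 1413 CPM in control cells, against a median over the 26 clusters of 259 CPM in the Memo1-mutant library and 233 CPM in the control library. Sec61b, a small subunit of the channel, stood at 804 CPM in Memo1-mutant and 768 CPM in control cells of cluster 6. Manf, a secreted ER-resident factor, stood at 692 and 743 CPM there. These are molecules counted from 3' ends, so levels of different genes can be set side by side without a length scale.

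Hspa5, Sdf2l1, Canx, Ddit3 and Herpud1 instead had their highest level of the 26 clusters in macrophage-like all-cell cluster 4 in both libraries. Hspa5, the HSP70 chaperone of the ER, which stood at 758 CPM over all Memo1-mutant cells and 571 CPM over all control cells, was at 2309 CPM in Memo1-mutant and 1454 CPM in control cells of cluster 4, and at 624 and 617 CPM in lineage cluster 6. Calr, which stood at 709 CPM over all Memo1-mutant cells and 614 CPM over all control cells, was at 849 and 733 CPM in cluster 6. Hspa5 was thus the most abundant member over all cells of the Memo1-mutant library, and Calr that of the control library. Herpud1, a degradation factor of the ER membrane, stood at 297 CPM in Memo1-mutant and 252 CPM in control cells of all-cell cluster 4. In the secretory ameloblast-like cluster the same gene stood at 3.71 and 3.38 CPM, and in the maturation ameloblast-like cluster at 2.58 and 1.73 CPM. Ddit3 stood in all-cell cluster 4 at 109 CPM in Memo1-mutant and 106 CPM in control cells, against 14.2 and 11.2 CPM in lineage cluster 3. Trib3 had no count in lineage clusters 3 and 7 in either library and was abundant enough to be compared in all-cell cluster 15, endothelium-like, alone (13.1 and 9.30 CPM). The immediate early and dissociation genes, which trypsin digestion is known to raise, summed to 24571 CPM in Memo1-mutant and 28107 CPM in control cells of all-cell cluster 4, and to 1056 and 667 CPM in lineage cluster 3; their part in these levels was not tested.

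**Figure D2:**
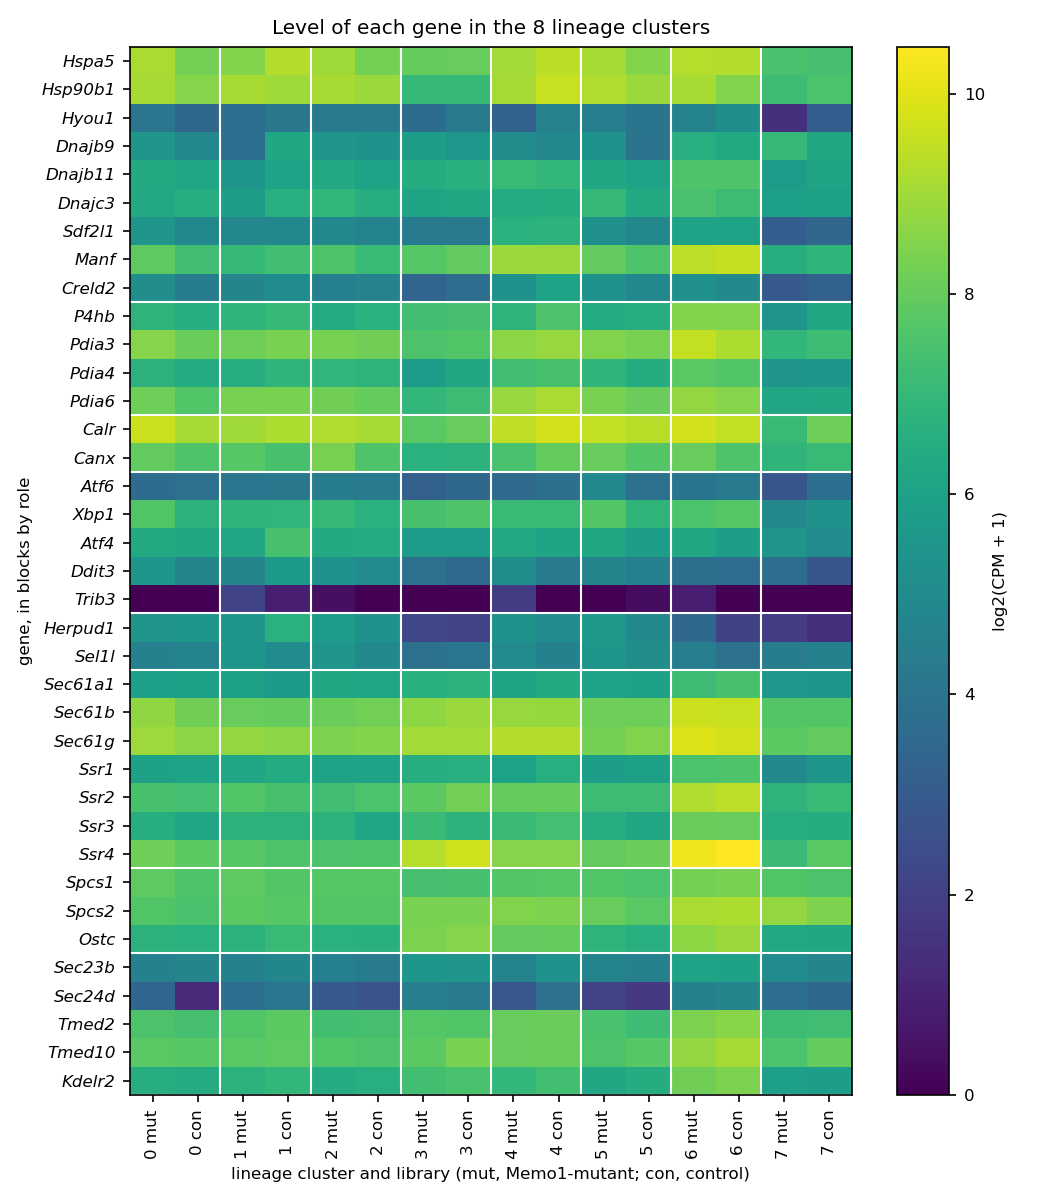
Level of each of the 37 genes, as log2(CPM + 1) by colour, in the 8 lineage clusters (columns in pairs, Memo1-mutant left of control), with white lines between roles in the order chaperones, disulfide isomerases, lectin chaperones, UPR factors, degradation, translocon, peptidase and transferase, and vesicles. Cluster 6 is brightest for Ssr4 and the other translocon genes in both libraries, and Trib3 and Herpud1 are dark in clusters 3 and 7.

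The cargo changes what a share of all counts means in these cells, since the enamel matrix genes Amelx, Ambn and Enam alone made up 45.3% of counts in Memo1-mutant and 47.3% in control cells of lineage cluster 3. In cluster 6 they made up 20.4% of Memo1-mutant and 26% of control counts, and in cluster 7 they made up 31.0% of Memo1-mutant and 21.8% of control counts. Over the remaining counts the 37 genes held 1.53% in Memo1-mutant and 1.64% in control cells of cluster 6, 1.01% and 1.18% in cluster 3, and 0.477% and 0.467% in cluster 7. Without the cargo, cluster 3 thus stood second to cluster 6 in both libraries, and cluster 7 was still the lowest of the 8. The ratio of mutant to control in cluster 7 was 0.901 (0.867 to 0.936) over all counts and 1.02 (0.983 to 1.06) without the cargo. Trimmed-mean scaling, which centres the typical gene, shifts the log2 ratios of this cluster by 0.01, and median-of-ratios scaling by 0.006. Under both scalings the summed ratio stays below 1, so its direction depends on how the totals are taken.

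**Figure D3:**
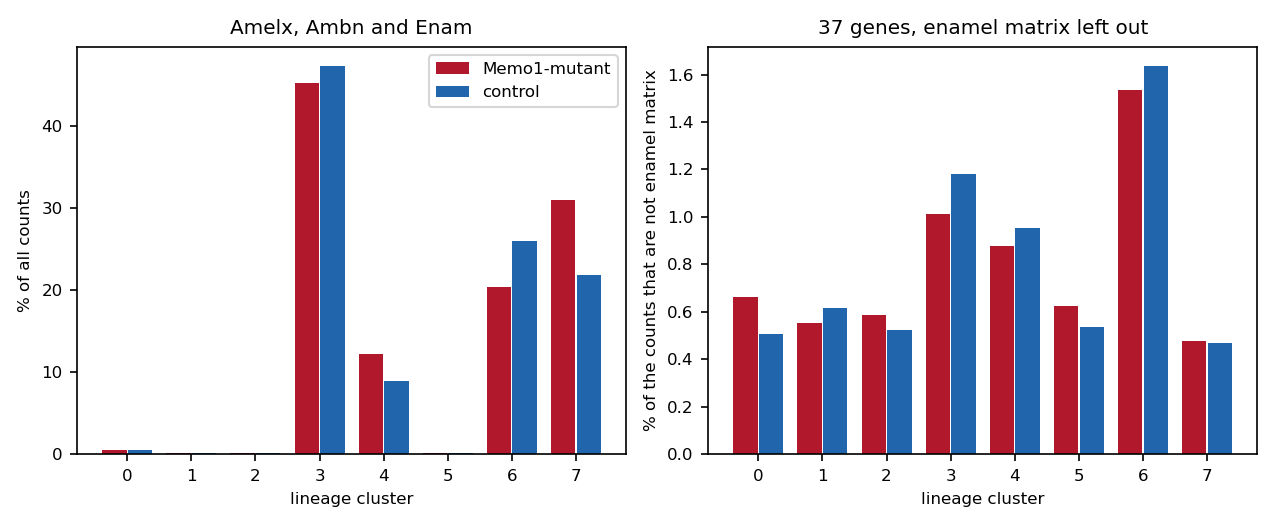
Left, Amelx, Ambn and Enam as a percentage of all counts; right, the 37 genes as a percentage of the counts that are not enamel matrix; lineage clusters 0 to 7 on the horizontal axis, Memo1-mutant bars left of control bars. Clusters 3, 4, 6 and 7 carry the cargo, and in cluster 7 the bars on the right are 0.477% and 0.467%.

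A member is called higher or lower below when its ratio of Memo1-mutant to control passed 1.5-fold with a counting interval that excluded 1, among genes with at least 20 counts in both libraries together and a mean of at least 10 CPM. In the whole lineage none of the 36 members measured was called in either direction, where 4.14% of all genes measured were called higher and 4.96% lower. Over the 26 clusters taken singly, 75 of 886 member-by-cluster pairs measured were higher (8.47%) and 21 were lower (2.37%), beside 6.98% and 4.08% of all gene-by-cluster pairs. By role, 35 of the 75 higher and 8 of the 21 lower pairs were chaperones of the HSP70 and HSP90 families and their co-chaperones, which make up 216 of the 886 pairs measured. The members' summed share in the lineage was 0.704% in Memo1-mutant and 0.650% in control cells, a ratio of 1.08 (1.08 to 1.09), with 28 members above 1 and 8 below. The median log2 ratio was 0.10 over the members and -0.04 over all genes measured. Ssr3, the gamma subunit of TRAP, had the highest member ratio, at 151 CPM in Memo1-mutant and 114 CPM in control lineage cells (1.32, 1.26 to 1.39), and Herpud1 the lowest, at 24.8 and 34.2 CPM (0.726, 0.656 to 0.803). The lineage as a whole mixes clusters in unequal parts: lineage cluster 1 holds 75 Memo1-mutant and 495 control cells.

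**Figure D4:**
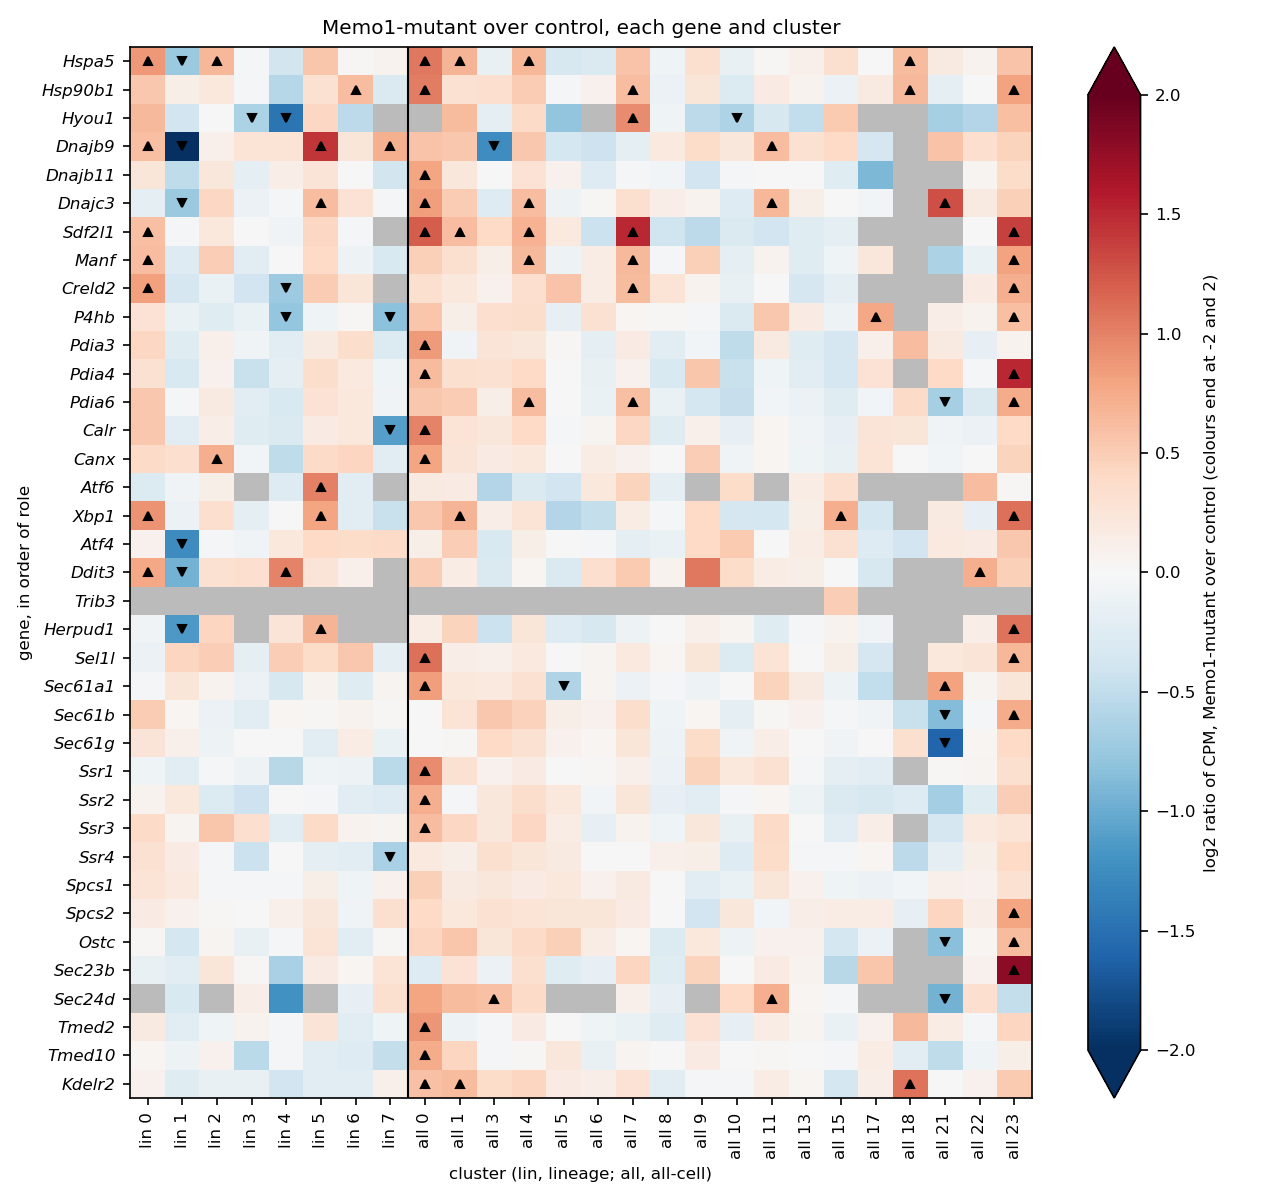
Colour gives the log2 ratio of CPM, Memo1-mutant over control, for each gene (rows, in order of role) in 26 clusters (columns, lineage clusters left of the line); grey marks genes with too few counts, and triangles mark ratios called higher (up) or lower (down). Calls all point up in lineage clusters 0, 2, 5 and 6, all point down in lineage clusters 1 and 3, and go both ways in lineage clusters 4 and 7. They all point up in all-cell clusters 0, 1, 4, 7, 11, 15, 17, 18, 22 and 23, and are absent from all-cell clusters 6, 8, 9 and 13.

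In the secretory ameloblast-like cluster 3 (286 Memo1-mutant and 223 control cells) 1 of 34 members was lower and none was higher, where 2.85% of all genes were lower and 7.80% were higher. Hyou1, an ER chaperone that exchanges nucleotide on Hspa5, stood at 12.1 CPM in Memo1-mutant and 18.9 CPM in control cells (1.56-fold lower, 1.21 to 2.01). The gap is larger than the counting interval but rests on 111 and 145 counts, and the call was not made by the mean of the cells' own CPM. The summed ratio was 0.890 (0.878 to 0.901), with 27 members below 1 and 7 above, and the median log2 ratio was -0.12 over the members and 0.12 over all genes. Every role summed to less in Memo1-mutant cells of this cluster: the translocon genes by a ratio of 0.861, the disulfide isomerases by 0.889 and the HSP70 and HSP90 family chaperones by 0.929. Ssr4 stood at 627 CPM in Memo1-mutant and 841 CPM in control cells, and Tmed10, a p24 cargo receptor, at 225 and 329 CPM, both short of 1.5-fold. Hyou1 was also lower in all-cell cluster 14, which holds most of these cells and some of cluster 6, as 1 of its 35 members, where 2.21% of genes were lower.

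Of the other genes of the pathway, few passed in the secretory ameloblast-like cluster. Among 26 other folding enzymes measured, Fkbp2, a prolyl isomerase of the ER, was lower at 106 CPM in Memo1-mutant and 169 CPM in control cells (1.60-fold, 1.48 to 1.75). Among 24 other translocation, peptidase and glycosylation genes, Sec11c, the catalytic subunit of signal peptidase, was lower at 64.4 and 104 CPM (1.62-fold, 1.45 to 1.80). Among 20 other UPR and degradation genes, Atf3, a stress-induced transcription factor that is also on the list of immediate early genes, was higher at 28.7 and 4.17 CPM, and Nupr1, a stress-response factor, was higher at 63.9 and 41.1 CPM. None of 35 other COPII, COPI and cargo receptor genes passed. Of the 11 immediate early and dissociation genes measured there, 7 were higher in Memo1-mutant cells.

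In lineage cluster 6, where the machinery peaks, 1 of 35 members was higher and none lower, where 12.3% of all genes were higher and 2.00% lower. Hsp90b1, the HSP90 chaperone of the ER, stood at 541 CPM in Memo1-mutant and 354 CPM in control cells (1.53-fold, 1.43 to 1.63). The summed ratio was 1.01 (0.997 to 1.02). The median log2 ratio was 0.02 over the members and 0.18 over all genes. Lectin chaperones summed to a ratio of 1.20 and disulfide isomerases to 1.17, while translocon genes summed to 0.952 and vesicle genes to 0.861. Trimmed-mean scaling lowers every ratio of this cluster by 0.23 on the log2 scale, which puts the isomerases just below 1 and ends the Hsp90b1 call.

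In the maturation ameloblast-like cluster 7 (78 Memo1-mutant and 187 control cells) 1 of 30 members was higher and 3 were lower, where 10.6% of all genes were higher and 14.7% lower, so the members' share of calls was no larger than that of genes at large. Calr, the lectin chaperone that also buffers ER calcium, stood at 133 CPM in Memo1-mutant and 286 CPM in control cells (2.15-fold lower, 1.80 to 2.57), from 155 and 663 counts. P4hb, a disulfide isomerase, stood at 42.1 and 74.3 CPM (1.76-fold lower, 1.28 to 2.47). Ssr4 stood at 141 and 221 CPM (1.57-fold lower, 1.31 to 1.88), but 1 control cell held 15.4% of its control counts. Dnajb9, a co-chaperone of Hspa5 and a classic target of Xbp1, stood at 124 CPM in Memo1-mutant and 75.6 CPM in control cells (1.64-fold higher, 1.31 to 2.06). The same 4 calls were made in all-cell cluster 24, which holds most of these cells (background there 9.89% higher and 15.3% lower). Without the cell of each library that held the most Ssr4 counts, Ssr4 came to a ratio of 0.719, and by the mean of the cells' own CPM to 0.992, neither past the limit. By that mean P4hb came to 0.876, also short of the limit, and Calr to 0.618.

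The cells of cluster 7 differ between the libraries in more than these genes. The 7 maturation ameloblast markers summed to 6048 CPM in Memo1-mutant and 38073 CPM in control cells, with none of the 7 at 0 in either library, and the secretory markers to 310879 and 218572 CPM. Of the 10 immediate early genes measured there, 2 were higher and 3 lower. How far a different mix of stages set the 4 calls was not tested. Among the other pathway genes in cluster 7, Fkbp2 was lower, at 64.5 CPM in Memo1-mutant and 134 CPM in control cells (2.08-fold, 1.61 to 2.71). Plod2, a collagen lysyl hydroxylase, was lower at 34.4 and 97.6 CPM, and Sdf4, a calcium-binding protein of the Golgi, at 75.7 and 116 CPM. Tmx1 and Rcn2 were higher, which makes 2 higher and 3 lower of 25 other folding enzymes. Of 20 other UPR and degradation genes, 3 were higher (Sesn2, Vldlr and Asns, of which Asns, asparagine synthetase, a target of Atf4, stood at 39.6 and 26.3 CPM) and 4 were lower, led by Ube2j1, an ER ubiquitin-conjugating enzyme, at 20.6 and 60.5 CPM, with Tmbim6 and Edem3 next. Of 23 other translocation and glycosylation genes, 4 were lower, among them Sec11c at 19.8 and 47.1 CPM, Ost4 at 167 and 276 CPM, and Srp68, a protein of the signal recognition particle, at 16.3 and 35.4 CPM. Of 36 other COPII, COPI and cargo receptor genes, Sec24b was higher and Copz1 lower.

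For the whole lineage the same lists gave 1 higher of 30 other folding enzymes (Plod2, 1124 CPM in Memo1-mutant and 633 CPM in control cells), 2 higher and 2 lower of 23 other UPR and degradation genes, none of 24 translocation genes and 1 lower of 39 vesicle genes (Tmed1, 29.9 and 47.2 CPM). Plod2 stood 1.78-fold higher in the lineage (1.74 to 1.81) and 2.84-fold lower in cluster 7 (2.02 to 4.08); the difference between lineage and cluster was not tested. The higher UPR genes were Nupr1 at 66.2 and 29.7 CPM and Sesn2, an Atf4 target, at 17.4 and 8.58 CPM. The lower ones were Atf3 at 22.4 and 92.8 CPM and Ppp1r15a (GADD34), which restarts translation after stress, at 17.5 and 35.1 CPM. Atf3 also counts among the immediate early genes, of which 8 of 15 were lower in the lineage and none higher.

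In lineage cluster 1, outer enamel epithelium or stellate reticulum-like, 6 of 36 members were lower (16.7%) and none higher, beside 5.94% of all genes lower and 8.84% higher. Dnajb9 stood at 13.1 CPM in Memo1-mutant and 74.2 CPM in control cells (5.65-fold lower, 2.84 to 13.2), from 8 and 433 counts, and 37.5% of the Memo1-mutant counts came from 1 cell. Atf4, the translationally controlled UPR factor, stood at 72.3 and 173 CPM (2.39-fold lower, 1.77 to 3.31). Herpud1 stood at 46.0 CPM in Memo1-mutant and 102 CPM in control cells (2.21-fold lower, 1.51 to 3.35), and Hspa5 at 365 and 610 CPM (1.67-fold lower, 1.46 to 1.93). Ddit3 stood at 26.3 and 50.7 CPM and Dnajc3, a co-chaperone that restrains the PERK kinase, at 57.5 and 96.0 CPM. The counting intervals of the libraries did not overlap for any of the 6. That adds no support, since the 6 were picked by a ratio interval that excludes 1. With the 10 Memo1-mutant and 16 control cells of under 1000 UMIs left out and the rest thinned to 1000 UMIs, 2 of these calls are left. Dnajc3 then comes to a ratio of 1.55. The median cell held 7986 UMIs in Memo1-mutant and 9878 UMIs in control cells before thinning, so few counts are left for each gene. The translocon genes of the same cells summed to a ratio of 1.07, which trimmed-mean scaling (a shift of -0.12 on the log2 scale) turns to just below 1, and Xbp1 and Atf6 stood at 0.924 and 0.949.

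Not all calls of lineage cluster 1 were made in all-cell cluster 12, which divides the epithelium differently, and the reason was not tested. All 15 immediate early and dissociation genes were lower in the Memo1-mutant cells of lineage cluster 1 (859 CPM summed in Memo1-mutant, 5547 CPM in control). Their part in the 6 calls was not tested. Lineage cluster 8 (led by Dcpp2 and Ces1d) holds 91 Memo1-mutant cells and no control cell, and all-cell cluster 12 holds those 91 cells together with 69 Memo1-mutant and 470 control cells of lineage cluster 1. In cluster 8, Dnajb9 stood at 72.6 CPM, Atf4 at 126 CPM, Herpud1 at 121 CPM, Hspa5 at 529 CPM, Ddit3 at 78.6 CPM and Dnajc3 at 140 CPM, each above its level in the Memo1-mutant cells of cluster 1. In all-cell cluster 12, with 177 Memo1-mutant and 499 control cells, 2 of 36 members were lower, where 3.40% of genes were: Atf4 at 109 CPM in Memo1-mutant and 172 CPM in control cells, and Dnajb9 at 44.9 and 73.3 CPM. Hspa5 stood at 466 and 609 CPM there, Dnajc3 at 106 and 92.6 CPM, Herpud1 at 89.2 and 101 CPM, and Ddit3 at 57.8 and 49.5 CPM. In cluster 12 too, 14 of the 15 immediate early genes were lower in Memo1-mutant cells (2089 and 5431 CPM summed).

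**Figure D5:**
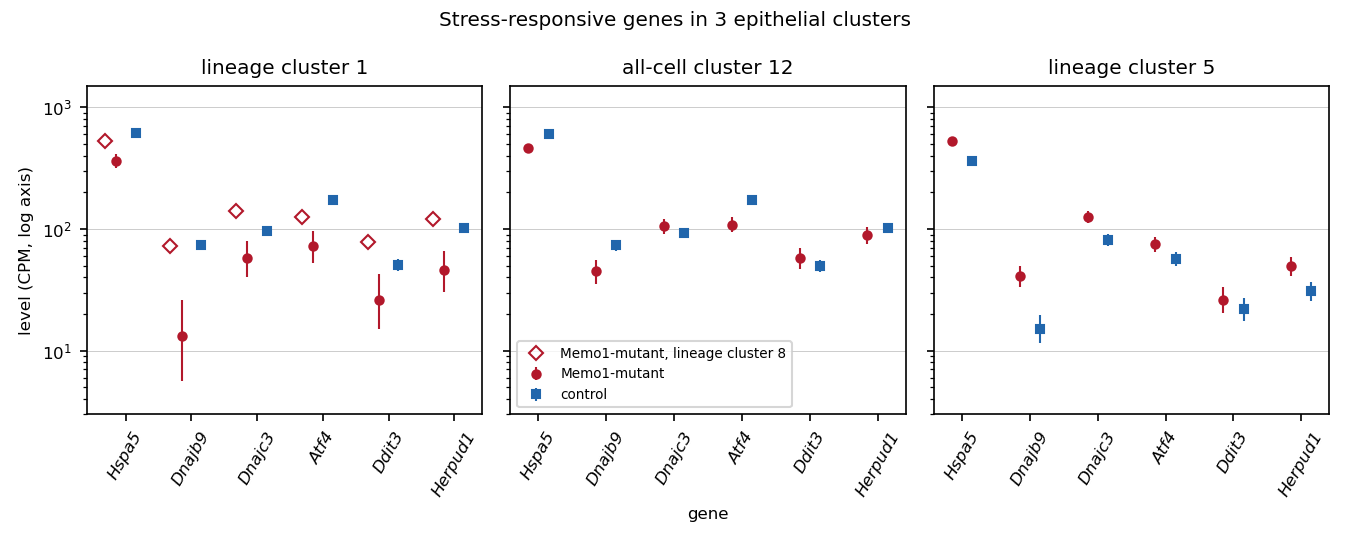
CPM on a log axis of 6 stress-responsive genes in Memo1-mutant (circles) and control cells (squares), with exact 95% Poisson intervals, in lineage cluster 1, all-cell cluster 12 and lineage cluster 5; open diamonds give the Memo1-mutant cells of lineage cluster 8. All 6 are lower in Memo1-mutant cells of cluster 1, Dnajc3 and Ddit3 are not in cluster 12, and all 6 points lie higher in Memo1-mutant cells of cluster 5, with overlapping intervals for Ddit3 and Atf4 (under trimmed-mean scaling the Ddit3 ratio lies just below 1).

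In lineage cluster 5, stratum intermedium or papillary layer-like (174 Memo1-mutant and 211 control cells), 5 of 35 members were higher (14.3%) and none lower, which is near the 15.6% of all genes that were higher there (1.81% lower). The 5 were Dnajb9 at 40.9 CPM in Memo1-mutant and 15.2 CPM in control cells (2.69-fold, 1.94 to 3.77), Xbp1 at 199 and 115 CPM (1.73-fold, 1.52 to 1.97), Atf6 at 28.9 and 14.4 CPM, Dnajc3 at 126 and 81.7 CPM, and Herpud1 at 49.5 and 30.9 CPM. Hspa5 stood at 533 and 363 CPM, a ratio of 1.47 (1.36 to 1.58), just short of the limit. The translocon genes summed to 0.955. The median log2 ratio was 0.27 over the members and 0.22 over all genes, and scaling that centres the typical gene shifts this cluster by -0.26, after which 2 of the 5 calls are left. Of 14 immediate early genes, 10 were higher and 1, Atf3, was lower in Memo1-mutant cells (1272 CPM summed in Memo1-mutant, 734 CPM in control); their part was not tested. In all-cell cluster 20, which holds most of these cells, 4 of 35 members were higher, where 14.5% of genes were.

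Lineage clusters 0, 2 and 4 carry no cell type name. In lineage cluster 0 (led by Pmch, haemoglobin genes and Gpx3), whose median cell holds 898 UMIs in the Memo1-mutant and 1092 UMIs in the control library, 7 of 35 members were higher and none lower, where 10.1% of genes were higher and 6.29% lower. Hspa5 stood there at 557 CPM in Memo1-mutant and 306 CPM in control cells, Xbp1 at 196 and 106 CPM, Manf at 235 and 153 CPM, and Ddit3 at 44.2 and 25.8 CPM. In the same cells 12 of 15 immediate early genes were higher and 1 lower (2010 CPM summed in Memo1-mutant, 1227 CPM in control). Fibroblast markers summed to 1070 and 511 CPM, macrophage markers to 1042 and 510 CPM and erythroid markers to 6271 and 15875 CPM, and the part of any of these lists was not tested. In lineage cluster 2 (led by Pi15, Igfbp2 and Igfbp5) 2 of 35 were higher, Hspa5 at 496 and 312 CPM and Canx, the membrane-bound lectin chaperone, at 315 and 191 CPM, where 14% of genes were higher and 4.48% lower. In lineage cluster 4 (led by Igfbpl1, Col22a1 and Vwde) 1 of 36 was higher and 3 were lower, where 3.06% of genes were higher and 4.95% lower. Ddit3 stood there at 36.1 CPM in Memo1-mutant and 18.2 CPM in control cells, P4hb at 110 and 188 CPM, Creld2, an ER isomerase-like protein, at 39.9 and 66.1 CPM, and Hyou1 at 8.73 and 23.9 CPM. The Ddit3 and Hyou1 values of that cluster rest on 29 and 7 counts in Memo1-mutant cells, against 19 and 25 in control cells. Its median cell holds 1028 UMIs in the Memo1-mutant and 1996 UMIs in the control library. Erythroid markers summed there to 23113 CPM in Memo1-mutant and 300 CPM in control cells, and cycling markers to 49.9 and 152 CPM. The part of depth or of these lists in the 4 calls was not tested.

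Outside the epithelium, macrophage-like all-cell cluster 4 (987 Memo1-mutant and 491 control cells) showed a higher chaperone level in the Memo1-mutant library. Keratin 14 is an epithelial gene, and the labels name no other Cre driver. With 1 library per genotype, an effect of the genotype on this level cannot be told apart from a difference between the libraries. There 5 of 36 members were higher (13.9%), where 3.23% of all genes were, and the summed share was 1.09% in Memo1-mutant and 0.819% in control cells (ratio 1.33). Hspa5 was 1.59-fold higher (1.55 to 1.62), at the 2309 and 1454 CPM given above. Sdf2l1, which keeps Hspa5 clients from aggregating, stood at 214 CPM in Memo1-mutant and 132 CPM in control cells (1.62-fold). Manf stood at 416 and 266 CPM (1.56-fold, 1.49 to 1.65), Pdia6 at 444 and 290 CPM (1.53-fold, 1.46 to 1.61) and Dnajc3 at 212 and 138 CPM (1.54-fold, 1.43 to 1.65). All 5 sit close to the 1.5-fold limit, and 1 is left under trimmed-mean scaling, which lowers every ratio of this cluster by 0.09 on the log2 scale. From the lower to the upper quartile, its cells held 0.780% to 1.27% of counts in the 37 genes in the Memo1-mutant library and 0.606% to 0.958% in the control library, over 987 and 491 cells. Macrophage markers summed to 26571 CPM in Memo1-mutant and 30873 CPM in control cells, and erythroid markers to 1095 and 3660 CPM.

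All-cell clusters 7 and 23 and the shallow clusters 0 and 1 also gave higher calls and no lower ones. Of all genes measured, 456 of 8843 were lower in cluster 7, nearly as many as the 496 that were higher. In the others 243 of 7342 were lower in cluster 23, 152 of 7938 in cluster 0 and 99 of 7195 in cluster 1. In fibroblast-like cluster 7 (770 Memo1-mutant and 102 control cells) 6 of 36 members were higher, where 5.61% of genes were: Sdf2l1 stood at 35.7 CPM in Memo1-mutant and 12.6 CPM in control cells, Hsp90b1 at 902 and 587 CPM, Manf at 321 and 205 CPM, and Pdia6 at 384 and 253 CPM. Beside them, 13 of 15 immediate early genes were lower in Memo1-mutant cells of cluster 7 (3481 CPM summed in Memo1-mutant, 7140 CPM in control). Fibroblast markers summed to 9126 and 13793 CPM, pericyte or smooth muscle markers to 1808 and 473 CPM and odontoblast markers to 2915 and 5730 CPM, with 3 of the 6 odontoblast markers at 0 in control cells, and the part of these lists was not tested. In cluster 23 (led by Jchain, Chil3, Napsa and Ccr2) 14 of 36 were higher, where 6.93% of genes were, among them Sdf2l1 at 129 CPM in Memo1-mutant cells (2.59-fold above control cells), Xbp1 at 306 and 142 CPM, Pdia4 at 69.0 and 24.2 CPM and Herpud1 at 256 and 121 CPM. Markers of B and plasma cells, which are known for a large ER, summed to 2263 CPM in Memo1-mutant and 379 CPM in control cells of cluster 23, with 1 marker at 0 in control cells; erythroid markers summed to 2223 and 40687 CPM, and the part of either in these calls was not tested. In cluster 0 (led by Ldhb, Crabp1 and Pcp4) 17 of 35 were higher, where 12.9% of genes were, among them Hspa5 at 355 and 171 CPM, Hsp90b1 at 343 and 168 CPM, Calr at 429 and 215 CPM and Pdia3, the lectin-linked isomerase, at 204 and 113 CPM. Fibroblast markers summed there to 2591 CPM in Memo1-mutant and 1345 CPM in control cells, and erythroid markers to 1920 and 3778 CPM, and 9 of 15 immediate early genes were higher; their part was not tested. In cluster 1 (led by Aif1, Rgs10 and Tyrobp) 4 of 36 were higher, where 7.62% of genes were: Hspa5 at 579 and 360 CPM, Xbp1 at 131 and 81.7 CPM, Sdf2l1 at 162 and 105 CPM and Kdelr2, which returns ER proteins from the Golgi, at 91.1 and 59.0 CPM. Of 15 immediate early genes 7 were higher there (5353 CPM summed in Memo1-mutant, 3430 CPM in control), and their part was not tested.

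In the remaining clusters calls were few. In all-cell clusters 6, 8, 9 and 13 no member was called, where the share of genes called higher was 2.74%, 2.46%, 5.27% and 2.15% and the share called lower 3.72%, 1.65%, 2.44% and 1.84%, in that order; clusters 8 and 9 are endothelium-like and cluster 13 fibroblast-like. In pulp mesenchyme-like cluster 3, Sec24d, a COPII coat subunit, was higher at 15.3 CPM in Memo1-mutant and 10.1 CPM in control cells, and Dnajb9 was lower at 45.6 and 108 CPM, where 2.83% of genes were higher and 3.99% lower. Xbp1 was higher in endothelium-like cluster 15 (427 and 258 CPM, background 4.06%), P4hb in cluster 17 (311 and 181 CPM, background 4.77%) and Ddit3 in odontoblast-like cluster 22 (29.4 and 17.7 CPM, background 3.29%). In cycling cluster 11, Dnajc3, Dnajb9 and Sec24d were higher, where 12.9% of genes were, with Dnajc3 at 125 and 79.0 CPM. Erythroid markers summed there to 12919 CPM in Memo1-mutant and 270 CPM in control cells, and pericyte or smooth muscle markers to 2284 and 447 CPM. Immediate early genes summed to 2054 and 863 CPM and cycling markers to 3164 and 3293 CPM, and the part of these lists was not tested. In erythroid-like cluster 18, Hspa5, Hsp90b1 and Kdelr2 were higher, where 8.45% of genes were, with Hspa5 at 34.7 and 22.5 CPM. Sec61a1, the pore subunit of the channel, was lower in cluster 5 (60.9 and 92.7 CPM, background 6.27%), and Hyou1 in pericyte-like cluster 10 (19.9 and 30.4 CPM, background 2.77%). In shallow cluster 21 (led by Col1a1, Cpa6 and Meg3) 2 of 29 were higher, Sec61a1 and Dnajc3, and 5 were lower, led by Sec61g at 220 and 662 CPM and Sec61b at 136 and 247 CPM, where 8.0% of genes were higher and 11.2% lower.

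The calls of the 7 members with the stress response element differed between clusters. In lineage cluster 1, Hspa5 and Dnajc3 of the 7 were lower, in lineage cluster 4 Creld2 was lower, and in lineage cluster 7 Calr was lower. Hspa5 and Creld2 were higher in lineage cluster 0, Hspa5 and Canx in lineage cluster 2, Dnajc3 in lineage cluster 5, and Hsp90b1 in lineage cluster 6. The shares of all genes called in these clusters are given above. In macrophage-like all-cell cluster 4, Hspa5, Dnajc3 and Pdia6 were higher. Canx, Calr, Creld2 and Hsp90b1 were short of the limit, at 318, 1165, 50.3 and 1036 CPM in Memo1-mutant and 274, 881, 40.0 and 726 CPM in control cells. All 7 ratios there were above 1, but so were those of 35 of the 36 members measured, with or without the element. In all-cell cluster 0, Hspa5, Hsp90b1, Dnajc3, Calr and Canx, 5 of the 7, were higher, beside the 12.9% of all genes given above. Over the 26 clusters Hspa5 was higher in 6 and lower in 1, and Hsp90b1 was higher in 5 and lower in none. Dnajb9, whose window holds none of the elements described above, was higher in 4 and lower in 2.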

How the data were processed

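The 2 single-cell libraries from incisors of postnatal day 20 mice were compared: 1 Memo1-mutant and 1 control. Per the submitters' processing notes, the authors used Cell Ranger, Seurat 3 and the mm10 build; other settings are not given in the sources used here. The deposited matrix holds UMI counts per gene and cell, with the authors' cluster numbers; its cells span 501 to 49967 UMIs, and the highest mitochondrial share is 30.0%. No doublet caller was run. Counts were summed per cluster and library and given as CPM with exact Poisson intervals; ratios carry exact conditional intervals (SciPy 1.17.1). Calls needed 1.5-fold, an interval excluding 1, 20 counts and 10 CPM, and the same rule over all genes gives the background. In lineage clusters 3 and 7 every member called is named, elsewhere up to 4 in each direction, ordered by the interval's bound nearer 1, with up to 3 pathway genes in each direction and list in clusters 3 and 7; cluster 12 and 8 values were named after they were seen. edgeR 4.0.16 and DESeq2 1.42.0 gave scaling factors for alternatives. Marker limits behind the "-like" names were also set with the data known. Manf, Hsp90b1, Pdia4, Atf6, Ostc and Tmed10 overlap another annotated gene on their strand, and how such reads were counted is not given in the sources used here. The calling rule was run on simulated counts that held counting error alone, the same error that the intervals assume. That run therefore says nothing about variation between cells, libraries or mice. The members and lists were chosen with earlier results of these data known.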

Additional observations from a re-analysis of the deposited data

Results flagged for a closer look

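Among the lineage clusters, 6 members were called in opposite directions. None of these differences between clusters was tested, since each rests on 1 library per genotype. Hspa5 had a ratio of Memo1-mutant to control of 1.82 in lineage cluster 0 and 0.598 in lineage cluster 1. Dnajb9 had a ratio of 2.69 in cluster 5 and 0.177 in cluster 1. Dnajc3 had 1.54 in cluster 5 and 0.599 in cluster 1, and Herpud1 had 1.60 in cluster 5 and 0.453 in cluster 1. Ddit3 had 1.99 in cluster 4 and 0.518 in cluster 1. Creld2 had 1.77 in cluster 0 and 0.603 in cluster 4. For 5 of the 6 the low value is that of cluster 1, whose 75 Memo1-mutant cells leave out the 91 of cluster 8.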

How the results depend on the processing

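Of the single member ratios recomputed under the alternatives, 755 kept their direction and stayed within 1 counting interval, 99 moved and 8 reversed. Of the summed ratios, 146 stayed, 89 moved and 8 reversed. A summed ratio was counted as reversed only where its main interval excluded 1. Others that crossed 1, such as that of lineage cluster 6, are therefore not among the 8. The alternatives without barcodes in both libraries and without the cell with the most counts of a member were chosen after seeing the data. Thinning left out the cells with under 1000 UMIs. In the whole lineage the summed ratio of 1.08 became 1.09 under trimmed-mean (TMM) and 1.09 under median-of-ratios scaling, 1.16 with totals free of matrix, haemoglobin and mitochondrial genes, 1.04 under stricter cell limits, 1.13 with cells thinned to 1000 UMIs, 1.10 without the 5% of cells with the most UMIs, 1.07 without shared barcodes and 1.14 as the mean of the cells' own CPM. In lineage cluster 3 the summed 0.890 became 0.809 (TMM), 0.806 (median-of-ratios), 0.847 (totals without those genes) and 0.856 (thinned). Lower members there numbered 2 under these 4 settings, and 0 at 2-fold or by the mean of cells. In cluster 6 the summed 1.01 became 0.858 (TMM), 0.855 (median-of-ratios), 0.928 (totals without those genes) and 1.11 (thinned). In cluster 7 the summed 0.901 became 1.01 with totals without those genes, 0.828 thinned and 1.00 by the mean of cells, and 1 lower member was left at 2-fold. Under TMM and median-of-ratios scaling the summed ratio of cluster 7 stayed below 1. In all-cell cluster 4 the summed 1.33 became 1.25 (TMM), 1.26 (median-of-ratios) and 1.35 without the 5% of cells; its 5 higher members became 1 (TMM), 2 (median-of-ratios) and 0 (2-fold). Lower members in lineage cluster 1 fell to 2 when thinned and 3 at 2-fold, and higher members in cluster 5 to 2 under TMM, median-of-ratios and 2-fold. The 17 higher members of all-cell cluster 0 became 9 under median-of-ratios scaling, the 14 of cluster 23 became 4 when thinned, and the 6 of cluster 7 became 2 under stricter limits. Summed ratios that reversed were cluster 1 thinned (1.03), cluster 2 under TMM (0.966) and median-of-ratios (0.975), cluster 5 under TMM (0.970) and median-of-ratios (0.963), cluster 7 with totals without those genes (1.01), all-cell cluster 9 thinned (0.991) and cluster 11 under TMM (1.00, just below 1). Single members that reversed when thinned were Sdf2l1 in lineage cluster 0 (0.947), Dnajc3 in lineage cluster 1 (1.55), Hyou1 in all-cell cluster 10 (1.33), Dnajc3 in cluster 11 (0.832) and Creld2 in cluster 23 (0.741). Ddit3 in lineage cluster 1 reversed by the mean of cells (1.18), and P4hb in all-cell cluster 17 (0.730) and Dnajc3 in cluster 21 (0) under stricter limits. Scaling and thinning change every ratio of a cluster, or leave fewer cells, by construction; other causes were not tested. No paired analysis was possible because each genotype has 1 library, and no replicate could be left out.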

Other observations

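Sec61g and Spcs2 departed from the rest in ways the comparisons above do not use. Sec61g, the gamma subunit of the channel, was the most abundant member in erythroid-like all-cell cluster 18, at 761 CPM in Memo1-mutant and 608 CPM in control cells, where Sec61b stood at 20.8 and 28.5 CPM and Ssr4 at 13.9 and 20.1 CPM. Spcs2, a subunit of signal peptidase, was the most abundant member in the maturation ameloblast-like cluster 7: it stood at 432 CPM in Memo1-mutant and 344 CPM in control cells of cluster 7, and at 556 and 583 CPM in cluster 6, while Ssr4 stood at 141 and 221 CPM in cluster 7. Both were chosen after their values were seen, and neither difference has a replicate.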
